A study of Saccharomyces cerevisiae S288C with 18 samples.

Results

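The small nucleolar and spliceosomal RNAs of Saccharomyces cerevisiae were taken as every row of the count files whose identifier starts with snR in any case, together with LSR1, the U2 RNA. This rule gave 84 of 23521 rows, which stand for 82 distinct RNAs, since both copies of U3 (snR17a and snR17b) have an exon and an intron row. By the RefSeq annotation of the R64 genome, 49 rows belong to C/D box RNAs, 29 to H/ACA box RNAs and 6 to spliceosomal RNAs. Of the 84 rows, 39 had at least 1 read in some library and 38 passed the filter on low counts, against 12582 of all 23521 rows.

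The study sequenced the RNAs that copurify with proteins of nonsense-mediated decay and of translation. It holds 18 libraries, 3 in each of 6 groups, and asks which RNAs are enriched with a bait over total RNA or over a mock purification. The tagged strains derive from BY4741, and cultures grew to exponential phase in rich medium. In the 4 tagged groups (Lsm1-TAP, Upf1-TAP, Rpl16a-TAP and Pab1-TAP) the named protein carried a C-terminal TAP tag at its own gene and was isolated on IgG beads. Upf1 is the helicase of nonsense-mediated decay, Pab1 binds poly(A) tails, Rpl16a is part of the large subunit of the ribosome, and Lsm1 belongs to a cytoplasmic ring that acts in decapping. The control group is the same purification from BY4741 without a tag. The input group is total RNA of the extract taken just before purification, and its labels do not say from which strain.

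Box C/D RNAs guide the methylation of ribose in rRNA, and box H/ACA RNAs guide the conversion of uridine to pseudouridine. Both work in the nucleolus as stable particles with a core of proteins, and a few members (U3, U14, snR30, snR10) are needed to cut the rRNA precursor. Spliceosomal RNAs form the catalytic and recognition parts of the spliceosome in the nucleus, where U6 pairs with the start of the intron. U6 is made by RNA polymerase III, ends in a run of uridines and is bound there by the nuclear Lsm2-8 ring, which shares most of its subunits with the cytoplasmic Lsm1-7 ring.

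The sequences below are those of the RNAs on which the results turn, from RefSeq R64, each 5′ to 3′ on the plus strand and in DNA letters. U6 (snR6, chrXII:366235-366346) is shown because it was the one spliceosomal RNA with reads, and its capitals mark the ACAGAG box that pairs with the intron and the final run of T. In the 4 C/D box RNAs, snR56 (chrII:88190-88277), snR67 (chrV:61352-61433), snR69 (chrXI:364776-364876) and snR64 (chrXI:38811-38911), capitals mark the C box (TGATGA) and the D box (CTGA). Of snR30, the last 120 of 606 bases are given (chrXII:199270-199389), with the closing ACA in capitals.
snR6: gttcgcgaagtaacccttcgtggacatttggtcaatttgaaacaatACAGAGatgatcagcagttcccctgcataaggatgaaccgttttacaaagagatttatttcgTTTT
snR56: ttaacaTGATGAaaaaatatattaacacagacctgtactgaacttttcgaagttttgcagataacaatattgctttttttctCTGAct
snR67: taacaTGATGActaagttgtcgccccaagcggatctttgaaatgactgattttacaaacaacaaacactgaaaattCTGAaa
snR69: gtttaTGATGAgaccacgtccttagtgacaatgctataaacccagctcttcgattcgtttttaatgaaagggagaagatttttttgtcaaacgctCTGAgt
snR64: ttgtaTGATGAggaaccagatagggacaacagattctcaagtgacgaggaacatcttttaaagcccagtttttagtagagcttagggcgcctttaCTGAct
snR30: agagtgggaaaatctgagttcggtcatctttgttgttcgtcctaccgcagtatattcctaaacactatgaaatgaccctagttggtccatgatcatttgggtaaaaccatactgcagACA

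Of the 22 C/D box RNAs other than U3 that were tested, 16 held TGATGA in their first 25 bases and all 22 held CTGA in their last 25 bases, read on the RNA's own strand. Both together stood in 0.0917% of 100-base windows tiled over both strands of the genome. An ACA that ends 3 bases before the last annotated base was found in 7 of the 13 tested H/ACA RNAs and in 1.73% of 250-base windows. These matches describe the annotated sequences and their ends, which need not be the exact ends of the RNAs.

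Whether a row held reads followed the strand of its gene. All 42 rows of plus-strand genes except snR18, snR38, snR44 and snR59 held reads, whereas 41 of the 42 rows of minus-strand genes were at 0 in all 18 libraries. The exception was the exon row of snR17b, the second U3 gene, with 31 reads in 12 libraries. The same split was found outside these RNAs: 812 of 812 minus-strand rows of Xrn1-sensitive transcripts and 133 of 135 minus-strand introns were at 0, against 150 of 846 and 4 of 137 on the plus strand. Reading frames and exons of minus-strand genes were counted. A 0 for a minus-strand small RNA is therefore no measurement of its level, and the cause of the split was not tested.

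U1 (snR19), U2 (LSR1), U4 (snR14) and the long and short forms of U5 (snR7-L, snR7-S) all lie on the minus strand and were at 0. U14 (snR128), which is needed to cut the rRNA precursor, was at 0 for the same strand. The 4 plus-strand RNAs at 0 lie inside introns of EFB1, TEF4, RPS22B and RPL7B. The intron rows of these host genes held 3418, 1761, 4850 and 5778 reads in all. The ratio of an intronic RNA to its host exon and of long to short U5 could thus not be computed. No RNA that lies inside a host intron was measured, and the 38 tested rows (24 C/D box, 13 H/ACA box and U6) all come from genes of their own or from shared precursors.

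The libraries held 2790148 to 16381719 counted reads. Ribosomal RNA took 5.68% to 67.0% of the reads in 7 libraries, namely replicate 3 of every group and replicate 2 of the control, and at most 0.0239% in the other 11. The reading frame YLR154W-E in the rDNA locus is not counted in this share. It took 8.24% of reads in Lsm1-TAP replicate 2, 3.45% in control replicate 1 and 1.10% in Lsm1-TAP replicate 1, and under 1% elsewhere. The extracts had been depleted of rRNA with RiboZero or Ribominus, and the labels do not say which library had which. The small RNA rows together took 3.35% to 7.92% of input reads and 6.20% to 16.8% of control reads. They took 2.41% to 9.58% in Upf1-TAP, 0.316% to 7.99% in Pab1-TAP, 5.06% to 5.54% in Rpl16a-TAP and 5.80% to 16.0% in Lsm1-TAP. With rRNA reads left out of the total, Rpl16a-TAP replicate 3 stood at 16.9% and input replicate 3 at 13.5%. Pab1-TAP replicate 1, at 0.316%, stood apart from all other libraries. Some of the results that use it, but not all, are also given without it. A smaller share of reads can come from less of the small RNAs or from more of other RNAs, which cannot be told apart here. Below, a level is given as normalised CPM, that is reads per 1000000 after edgeR's TMM scaling, and a change as the log2 fold change of the edgeR fit ± its standard error (SE, 3 libraries against 3).

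**Figure D1:**
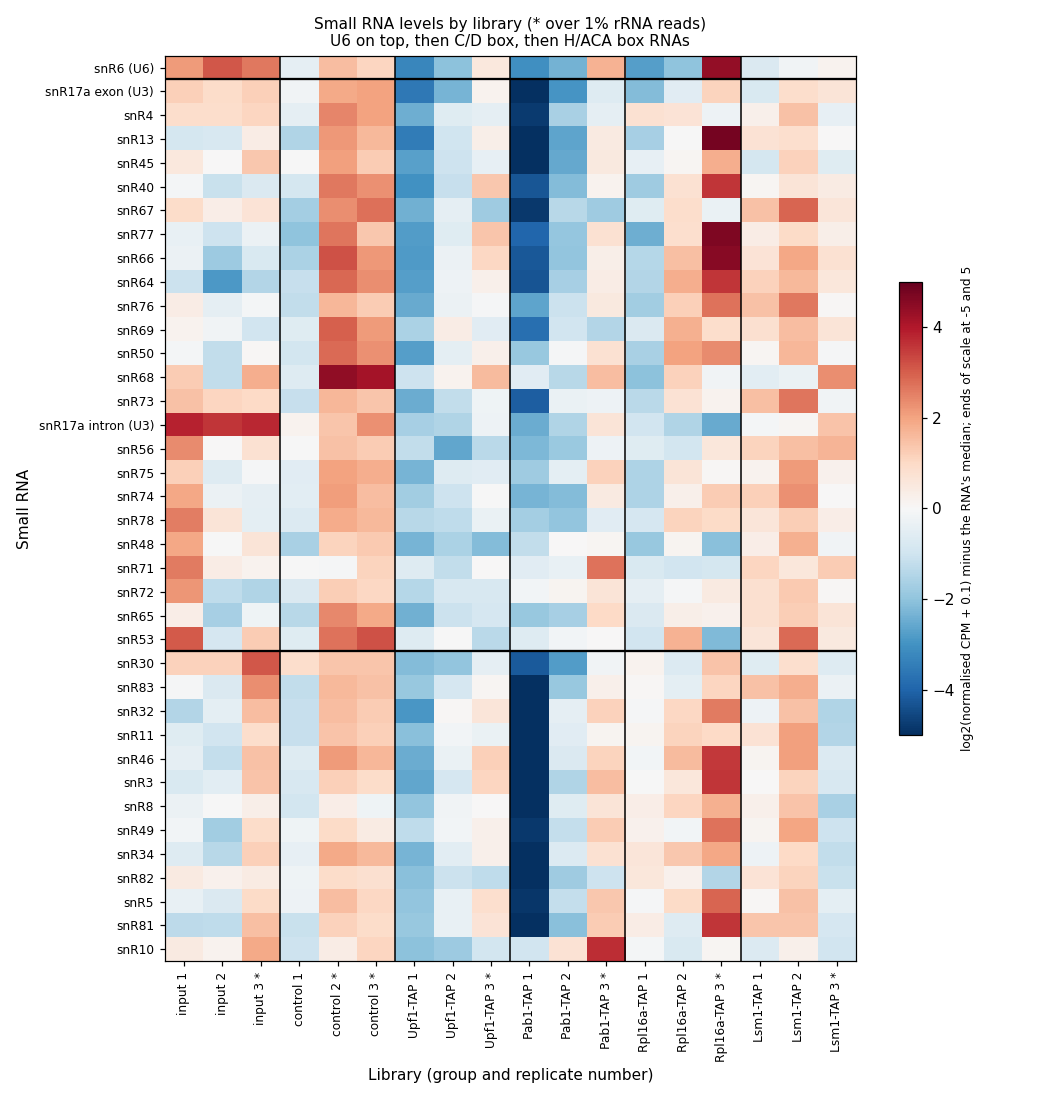
Levels of the 38 tested rows (vertical axis) in the 18 libraries (horizontal axis), as log2 of normalised CPM plus 0.1, minus the median of that RNA. Red is above and blue below the median, an asterisk marks the 7 libraries over 1% rRNA, and the dark blue column is Pab1-TAP replicate 1, which had 0.316% of its reads in these rows.

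Per kilobase of annotated length, H/ACA box RNAs were measured at higher levels than C/D box RNAs in every group. In input the median was 4964 unscaled CPM per kilobase over 13 H/ACA RNAs and 129 over 22 C/D RNAs. The highest H/ACA member in input was snR30 at 38010 and the lowest snR10 at 50.8, whereas among the C/D RNAs snR4 was highest at 12750 and snR65 lowest at 4.37. In the control purification the medians were 15410 for H/ACA and 1202 for C/D RNAs. Class went with length: the tested H/ACA RNAs had 165 bases or more. The tested C/D RNAs other than U3 had 136 or fewer, except snR4 (186 bases) and snR45 (172 bases). In input snR45 stood at 3834 CPM per kilobase, so both longer C/D RNAs lay far above the C/D median. A difference by class cannot be told apart from one by length here. U6 stood at 2782 CPM per kilobase in input. The levels of single RNAs spread widely within groups: in normalised CPM, the highest replicate exceeded the lowest by a median of 3.56-fold in input, 3.82-fold in Lsm1-TAP, 4.43-fold in Upf1-TAP, 5.04-fold in Rpl16a-TAP, 6.11-fold in the control and 21.1-fold in Pab1-TAP.

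Over the 6 groups, 16 of the 38 rows differed by edgeR's quasi-likelihood F test at an adjusted p below 0.05, where 58.5% of all features tested did. In the libraries with at most 1% rRNA, 28 differed (77.7% of all features). With all 18 libraries, the U3 intron row had the smallest adjusted p among the 16 (4.55e-05), followed by snR56 (0.00134) and snR67 (0.00461). In that fit of all libraries U6 did not pass (adjusted p = 0.107), nor did the U3 exon row (adjusted p = 0.0926). Among the 16 were snR30 and snR82 of the H/ACA class, the acetylation guide snR4, and the methylation guides snR48, snR53, snR64, snR65, snR66, snR68, snR69, snR73 and snR78. snR10 was among them as well. Its gene overlaps the reading frame YGL088W on the same strand, so its reads may in part belong to that frame.

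U3 is the box C/D RNA that base pairs with the rRNA precursor for the cuts that release the small subunit rRNA, and it is one of the few noncoding RNAs of yeast whose gene holds an intron. Its intron row was lower than input in all 5 purifications. Input held 125, 104 and 120 normalised CPM. The control held 9.80, 22.4 and 42.7, and Lsm1-TAP 8.09, 9.21 and 23.3. Upf1-TAP held 2.66, 2.96 and 7.14, Pab1-TAP 1.45, 2.96 and 13.5, and Rpl16a-TAP 4.42, 3.0 and 1.42. No purified library reached the lowest input library.

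Against input, the U3 intron fell by 5.11 ± 0.81 on the log2 scale in Rpl16a-TAP (adjusted p = 0.00212) and by 4.78 ± 0.76 in Upf1-TAP (adjusted p = 0.000152). It fell by 4.35 ± 0.75 in Pab1-TAP (adjusted p = 0.0012). In Lsm1-TAP it fell by 3.10 ± 0.70 (adjusted p = 0.00456), and in the control it fell by 2.21 ± 0.68 (adjusted p = 0.0332). The control call was lost without any 1 of 5 single libraries, with adjusted p of 0.0511 to 0.109 without each input library or without control replicate 1 or 2. Leaving out any single library of the comparison kept the other 4 calls. Without replicate 1 of every group, the Rpl16a-TAP and Lsm1-TAP calls were lost (adjusted p = 0.0835 and 0.0722). Without replicate 2 of every group, those of Rpl16a-TAP, Lsm1-TAP and Pab1-TAP were lost (adjusted p = 0.249, 0.121 and 0.14). The Upf1-TAP call against input was kept in these refits. Against the control the row was lower in Upf1-TAP (-2.57 ± 0.69, adjusted p = 0.00937) and in Pab1-TAP (-2.14 ± 0.69, adjusted p = 0.0415). The Pab1-TAP call was lost without either of its replicates 1 and 2, or without control replicate 2 or 3 (adjusted p of 0.0845 to 0.185), and the Upf1-TAP call without control replicate 3 (adjusted p = 0.0582).

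The exon row of U3 holds far more reads and its gene overlaps the reading frame of IRC13 on the same strand, so its count is uncertain. It stood at 20017, 16591 and 20063 normalised CPM in input. In the purifications its replicates were far apart: 7686, 32708 and 34873 in the control, 728, 1741 and 9825 with Upf1, and 148, 1131 and 5629 with Pab1. No comparison of the exon row passed the test, with log2 fold changes against input of -2.20 ± 1.12 in Upf1-TAP (adjusted p = 0.128) and -3.04 ± 1.2 in Pab1-TAP (adjusted p = 0.0752). With the replicate number as a block, the exon row was lower than input in Upf1-TAP (-3.34 ± 0.77, adjusted p = 0.00107), Pab1-TAP (-4.35 ± 0.82, adjusted p = 0.000443) and Rpl16a-TAP (-2.06 ± 0.73, adjusted p = 0.0438).

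Within a library, the intron could be set against the exon of U3 without any scaling between libraries. Input held 6.23, 6.26 and 5.98 intron reads per 1000 exon reads, with hardly any spread. The control held 1.28, 0.686 and 1.22, Lsm1-TAP 1.57, 0.582 and 1.70, and Upf1-TAP 3.65, 1.70 and 0.727. Rpl16a-TAP held 2.26, 0.514 and 0.0753, the last from 1 intron read, and Pab1-TAP 9.82, 2.62 and 2.39. All libraries of the control, Upf1-TAP, Rpl16a-TAP and Lsm1-TAP thus lay below all input libraries, whereas Pab1-TAP replicate 1, with 23 intron reads, lay above them.

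On the log2 scale with 0.5 reads added, the ratio was lower than input by -2.58 in the control, -2.41 in Lsm1-TAP, -1.89 in Upf1-TAP and -3.59 in Rpl16a-TAP (mean differences, n = 3 in each group). Each had p = 0.1 in a two-sided exact permutation test, the smallest that 3 against 3 libraries allow, and 0.18 after Benjamini-Hochberg adjustment over 9 comparisons, so none could pass the threshold. The Pab1-TAP difference from input was -0.63 (exact p = 0.4), and it was -1.28, -0.32 and -0.28 without replicates 1, 2 and 3 of both groups. Against the control, the Pab1-TAP ratio was higher by 1.96 with no overlap (exact p = 0.1), and Upf1-TAP, Rpl16a-TAP and Lsm1-TAP overlapped it. That Pab1-TAP difference was 1.45, 1.97 and 2.45 without replicates 1, 2 and 3 of both groups.

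**Figure D2:**
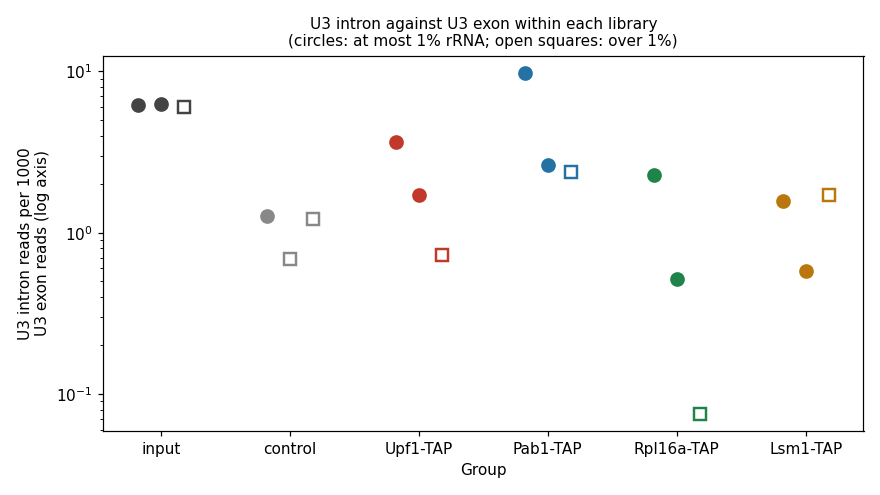
U3 intron reads per 1000 U3 exon reads (vertical log axis) in each library of the 6 groups (horizontal axis), with open squares for the 7 libraries over 1% rRNA. The 3 input libraries sit between 5.98 and 6.26, and of the purified libraries only Pab1-TAP replicate 1 lies above them.

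U6 was the only spliceosomal RNA with a measured level. Input held 483, 948 and 684 normalised CPM, and the control 79.8, 318 and 229. Replicates 1 and 2 of the tagged purifications were low: 11.2 and 26.5 in Upf1-TAP, 13.0 and 21.0 in Pab1-TAP, 16.0 and 26.8 in Rpl16a-TAP and 66.7 and 95.9 in Lsm1-TAP. Replicate 3, which has over 1% rRNA in each group, held 156, 360, 2313 and 124 in the same order, so that the third Rpl16a-TAP library was above all input libraries. With all libraries U6 passed in no comparison, and its log2 fold changes against input were -3.45 ± 1.48 in Upf1-TAP (adjusted p = 0.0732), -2.43 ± 1.42 in Pab1-TAP, -2.88 ± 1.44 in Lsm1-TAP, -1.75 ± 1.39 in the control and 0.15 ± 1.35 in Rpl16a-TAP.

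Among the 11 libraries with at most 1% rRNA, 2 in each group and 1 in the control, U6 was lower than input in every purification. It fell by 5.20 ± 0.51 on the log2 scale in Upf1-TAP (adjusted p = 8.81e-06), it fell by 5.43 ± 0.52 in Pab1-TAP (adjusted p = 2.97e-05) and it fell by 5.05 ± 0.51 in Rpl16a-TAP (adjusted p = 7.7e-05). In Lsm1-TAP it fell by 3.10 ± 0.47 (adjusted p = 0.000248) and in the 1 control library it fell by 3.15 ± 0.63 (adjusted p = 0.00425). Against that control library it was lower in Upf1-TAP (-2.05 ± 0.52, adjusted p = 0.00959) and Pab1-TAP (-2.28 ± 0.52, adjusted p = 0.0147), while Lsm1-TAP differed by 0.05 ± 0.53 (adjusted p = 0.991). The lone control library was assumed to vary like the other groups. With the replicate number as a block over all 18 libraries, U6 was lower than input in Upf1-TAP (-4.75 ± 1.01, adjusted p = 0.000521), Pab1-TAP (-4.22 ± 1.02, adjusted p = 0.00343) and Lsm1-TAP (-3.02 ± 0.93, adjusted p = 0.0135), but not in Rpl16a-TAP (-2.16 ± 1.03, adjusted p = 0.13).

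**Figure D3:**
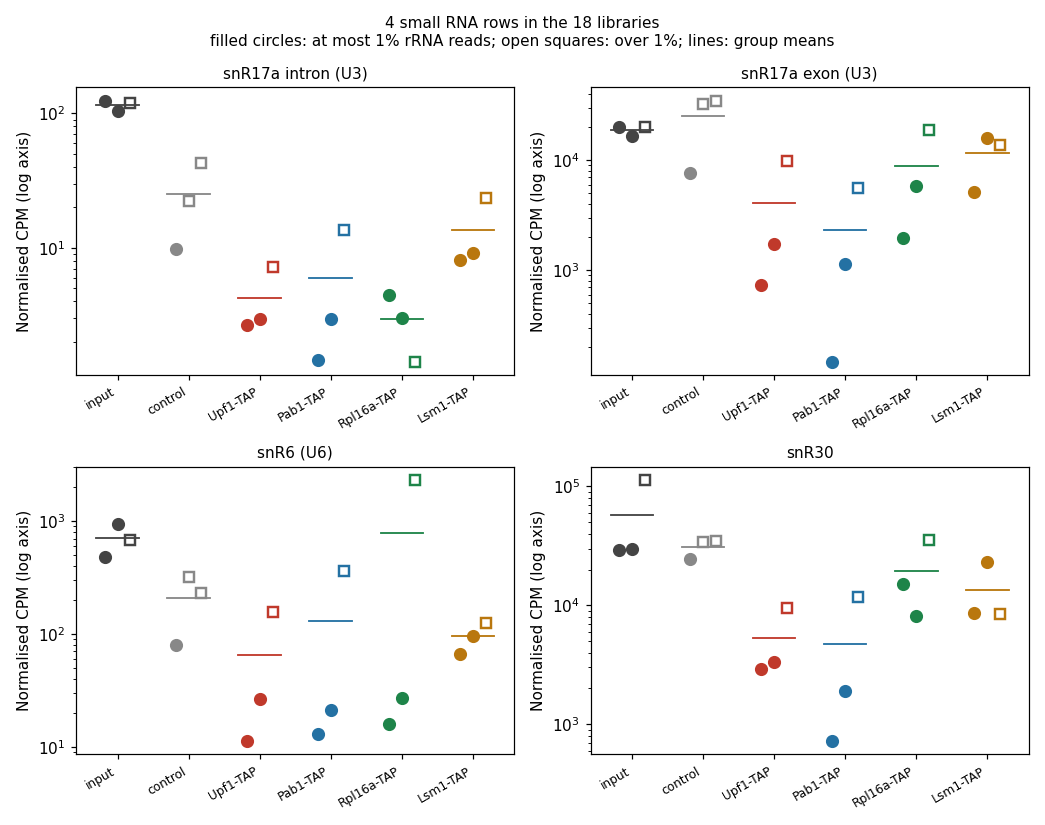
Normalised CPM (vertical log axes) of the U3 intron, the U3 exon, U6 and snR30 in the 3 libraries of each group (horizontal axes), with lines at group means, filled circles for libraries with at most 1% rRNA and open squares for those over 1%. The U3 intron lies at 104 to 125 in input and at or below 42.7 elsewhere, and U6 in replicate 3 of Rpl16a-TAP reaches 2313.

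snR30, the H/ACA box RNA needed to release the small subunit rRNA, had the highest level per kilobase in input, U3 aside, and held 29217, 29724 and 113460 normalised CPM there. Upf1-TAP held 2901, 3329 and 9584 and Pab1-TAP 722, 1896 and 11652, all below the lowest input library. The control held 24397, 34247 and 34527. snR30 was lower than input in Upf1-TAP (-3.45 ± 1.01, adjusted p = 0.0118) and in Pab1-TAP (-3.59 ± 1.01, adjusted p = 0.0208), and lower than the control in Upf1-TAP (-2.56 ± 0.97, adjusted p = 0.0486). The Upf1-TAP call against input was lost without its replicate 1 or 2 (adjusted p = 0.0546 and 0.0524), and the Pab1-TAP call without its replicate 1 or 2 or input replicate 3 (adjusted p of 0.0616 to 0.076). The call against the control was lost without any of 5 single libraries, that is each control library and Upf1-TAP replicates 1 and 2 (adjusted p of 0.0606 to 0.156).

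Upf1-TAP had the most calls. Against input, 8 of 38 members were lower and 0 higher, where 38.1% of all features were called, 22.2% higher and 15.9% lower. The 8 were the U3 intron, snR30, snR10, snR48, snR56, snR71, snR72 and snR78. The median log2 fold change was -1.19 over the members and 0.27 over all features, and 34 of 38 members were below 0. The members' median was -0.77 without Upf1-TAP replicate 1 and -0.78 without input replicate 3. By class, the median was -1.53 over the 22 C/D RNAs other than U3 (-0.41 without input replicate 1) and -0.56 over the 13 H/ACA RNAs (-0.07 without Upf1-TAP replicate 1, -1.28 without its replicate 3, and 0.44 without input replicate 3). With the replicate number as a block, 18 members were lower (51.3% of all features called), among them U6, the U3 exon, snR4, snR45 and snR67. In the libraries with at most 1% rRNA, 13 were lower (53.7% called).

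snR56, a guide for methylation of the small subunit rRNA, held 50.5, 9.83 and 16.3 normalised CPM in input and 4.01, 1.5 and 3.77 in Upf1-TAP, without overlap. It was lower than input by -3.06 ± 0.67 (adjusted p = 0.00173). snR48, a guide for the large subunit rRNA, held 24.8, 6.30 and 10.2 in input and 1.21, 2.09 and 1.33 in Upf1-TAP, and was lower by -3.14 ± 0.78 (adjusted p = 0.0044). Leaving out any single library kept both calls. Without replicate 1 of every group both were lost (adjusted p = 0.0508 for snR56 and 0.0705 for snR48). snR10 (-2.53 ± 0.86, adjusted p = 0.0267), snR71 (-2.15 ± 0.79, adjusted p = 0.0396), snR72 (-1.99 ± 0.73, adjusted p = 0.0388) and snR78 (-2.46 ± 0.74, adjusted p = 0.0139) were lower too. Input and Upf1-TAP overlapped for snR72 and snR78. Each of these 4 calls was lost without Upf1-TAP replicate 1 or 2. The snR10 call was also lost without input replicate 3 (adjusted p = 0.115) and the snR72 call without Upf1-TAP replicate 3 (adjusted p = 0.0593). Without input replicate 1, snR71 (adjusted p = 0.455), snR72 (adjusted p = 0.75) and snR78 (adjusted p = 0.211) were not called, and snR72 was at 0.34.

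Pab1-TAP against input gave 6 members lower and 0 higher (17.8% of all features called, 9.89% higher and 7.89% lower). They were the U3 intron, snR30, snR56, snR67, snR78 and snR82. The median was -0.65 over the members and 0.23 over all features. It was -0.13 without Pab1-TAP replicate 1, -0.33 without its replicate 2, -2.19 without its replicate 3 and -0.99 without input replicate 2. Without Pab1-TAP replicate 1, the library that stood apart, 2 members were lower, and without its replicate 2 also 2, whereas without replicate 3 there were 11. The shares of all features called in these refits are not given, so the counts do not show whether the change is particular to the members. With the replicate block 15 members were lower (32.3% of all features called) and in the libraries with at most 1% rRNA 16 (33.9% called).

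snR67 guides methylation at 2 sites of the large subunit rRNA. It held 272, 183 and 234 normalised CPM in input and 4.99, 56.1 and 42.0 in Pab1-TAP, where it was lower by -2.74 ± 0.92 (adjusted p = 0.0458), a call that leaving out any single library removed (adjusted p of 0.0563 to 0.12). snR82, an H/ACA guide for the large subunit rRNA, held 2555, 2166 and 2463 in input and 53.0, 538 and 902 in Pab1-TAP, a difference of -2.27 ± 0.77 (adjusted p = 0.0479). That call was lost without any input library or without Pab1-TAP replicate 1 or 2 (adjusted p of 0.07 to 0.109). snR56 at 1.96, 2.60 and 8.07 was lower by -2.67 ± 0.66 (adjusted p = 0.0111), a call lost without input replicate 1 (adjusted p = 0.12). snR78 was lower by -2.89 ± 0.77 (adjusted p = 0.0154), a call lost without input replicate 1 or Pab1-TAP replicate 1 or 2 (adjusted p of 0.0569 to 0.165).

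Rpl16a-TAP and Lsm1-TAP had few calls against input. In Rpl16a-TAP, 1 member was higher (snR64) and 1 lower (the U3 intron), where 9.62% of all features were called, 5.62% higher and 4.0% lower. With the replicate block, 1 was higher and 5 lower, where 24.8% were called. In the libraries with at most 1% rRNA, 0 were higher and 4 lower (30.6% called), namely U6, the U3 intron, snR56 and snR71. In Lsm1-TAP only the U3 intron was called, where 22.9% of all features were (13.1% higher, 9.77% lower), and the block gave 1 higher and 2 lower (37.0% called). In the libraries with at most 1% rRNA, snR64 (3.20 ± 1.05, adjusted p = 0.0252), snR76 (2.19 ± 0.83, adjusted p = 0.0476) and snR81 (2.73 ± 0.84, adjusted p = 0.0188) were higher in Lsm1-TAP, and U6 and the U3 intron lower (41.1% called). In Rpl16a-TAP the classes lay apart, with a median log2 fold change of 1.17 over 13 H/ACA RNAs and -0.44 over 22 C/D RNAs other than U3, beside 0.03 over all features. No H/ACA RNA passed the test there. The H/ACA median was 0.04 without Rpl16a-TAP replicate 3 and 2.25 without input replicate 3, and the C/D median was 0.90 without input replicate 1. In Lsm1-TAP the medians were 0.12 and 0.69, and they were -0.37 and 0.23 without Lsm1-TAP replicate 2.

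snR64, a methylation guide for the large subunit rRNA, was the only member called higher in any of the 9 comparisons. It held 39.4, 11.1 and 29.5 normalised CPM in input, 37.2, 604 and 418 in the control and 29.4, 289 and 982 in Rpl16a-TAP. The first replicate of both purifications lay within the input range. The log2 fold change was 3.75 ± 1.22 in the control (adjusted p = 0.0432) and 4.03 ± 1.23 in Rpl16a-TAP (adjusted p = 0.046). The control call was lost without any input library or without control replicate 2 or 3 (adjusted p of 0.0845 to 0.16), and the Rpl16a-TAP call without any input library or its replicate 2 or 3 (adjusted p of 0.0868 to 0.156). Lsm1-TAP held 183, 257 and 122, above all input libraries, and did not pass (2.83 ± 1.17, adjusted p = 0.0891). With the replicate block snR64 was higher than input in Lsm1-TAP by 2.66 ± 0.87 (adjusted p = 0.0191). In the 1 control library with at most 1% rRNA it differed from input by 0.62 ± 1.2 (adjusted p = 0.746).

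The control purification itself differed from input in 2 members, snR64 and the U3 intron, where 16.2% of all features were called, 9.21% higher and 6.96% lower. With its 1 library of at most 1% rRNA, U6 and the U3 intron were lower (21.9% called). The median log2 fold change of the members was 0.57, beside 0.04 over all features, with 26 of 38 above 0. It was 1.04 over the C/D RNAs other than U3 and 0.31 over the H/ACA RNAs. In the libraries with at most 1% rRNA, where the control is 1 library, the sign turned: the members' median was -0.88, beside 0.00 over all features, the C/D median other than U3 was -1.26 and the H/ACA median -0.24. With all other libraries kept, the members' median was 0.13 without control replicate 2, 1.00 without control replicate 1, 0.27 without input replicate 2 and 1.12 without input replicate 3. The control replicates 2 and 3, which have over 1% rRNA, exceeded replicate 1 in 37 of 38 members, and in 39.45% of all features. Comparisons with input share the input libraries and those with the control share the control libraries, so their calls are not independent.

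Against the control, Upf1-TAP had 13 members lower and 0 higher (33.7% of all features called, 19.8% higher and 13.9% lower). All 38 members were below 0, with a median of -2.11, beside 0.07 over all features. In the libraries with at most 1% rRNA, where the control is 1 library, the median was -0.34, beside 0.15 over all features. The C/D RNAs other than U3 had a median of -2.45 with 11 of 22 called, and the H/ACA RNAs a median of -1.33 with 1 of 13 called (snR30). Besides snR30 and the U3 intron, the calls were snR4, snR48, snR50, snR53, snR56, snR65, snR67, snR68, snR69, snR75 and snR78. For fits that leave out a single library, shares over all features are not given. Counts from them do not show whether a change is particular to the members. The count was 4 without control replicate 2 or 3, 3 without Upf1-TAP replicate 1 and 7 without its replicate 2, and 3 among the libraries with at most 1% rRNA (31.7% called), where snR53, snR67, snR68 and snR69 were on the other side of 0.

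snR4 guides the acetylation of cytidine in the small subunit rRNA. It held 2058, 15248 and 11144 normalised CPM in the control, against 513, 1816 and 2018 with Upf1 and 99.8, 916 and 2030 with Pab1, so that neither tagged group overlapped the control. It was lower by -2.71 ± 0.88 in Upf1-TAP (adjusted p = 0.0253) and -3.22 ± 0.90 in Pab1-TAP (adjusted p = 0.0221). The first call was lost without control replicate 2 or 3 or Upf1-TAP replicate 1 or 2 (adjusted p of 0.0614 to 0.102), the second without control replicate 2 or 3 or Pab1-TAP replicate 2 (adjusted p of 0.0519 to 0.0863). snR45, the second acetylation guide, held 931, 3922 and 2282 in the control and 142, 455 and 707 in Upf1-TAP, and did not pass (-2.45 ± 1.03, adjusted p = 0.0733). snR68, a methylation guide, was lower than the control in Upf1-TAP (-3.13 ± 1.2, adjusted p = 0.0438), with 8.20, 281 and 229 in the control and 6.23, 14.4 and 38.7 in Upf1-TAP, and the groups overlapped. Its call was lost without control replicate 2 or 3 or Upf1-TAP replicate 1 or 2 (adjusted p of 0.101 to 0.146).

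Pab1-TAP against the control gave 7 members lower and 0 higher (16.3% of all features called, 8.24% higher and 8.08% lower): the U3 intron, snR4, snR56, snR67, snR69, snR78 and snR82. The median was -2.13, beside 0.19 over all features. The count was 4 without Pab1-TAP replicate 1, 2 without its replicate 2 or without control replicate 2 or 3, and 15 without its replicate 3. Here too the shares over all features are not given, so a change particular to the members is not shown. Among the libraries with at most 1% rRNA, 5 were lower (13.0% called), namely the U3 intron and exon, snR30, snR45 and U6. The other 6 named calls, snR67 and snR69 among them, were lost there, and the members' median was -1.23.

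snR67 showed the largest of these decreases, from 44.6, 718 and 975 normalised CPM in the control to 4.99, 56.1 and 42.0 in Pab1-TAP (-4.08 ± 0.97, adjusted p = 0.00937), and control replicate 1 overlapped the Pab1-TAP range. In Upf1-TAP it held 27.4, 106 and 42.7 (-3.30 ± 0.94, adjusted p = 0.0126), and this call was lost without control replicate 3 or Upf1-TAP replicate 1 (adjusted p = 0.052 and 0.0599). snR69, a methylation guide for the large subunit rRNA, held 31.0, 382 and 207 in the control and 3.41, 24.5 and 17 in Pab1-TAP, without overlap (-3.78 ± 0.84, adjusted p = 0.00658). Leaving out any single library kept the Pab1-TAP calls of snR67 and snR69, but the subset with at most 1% rRNA did not. The snR67 and snR69 calls were also lost without replicate 2 of every group (adjusted p = 0.157 for each). The calls of snR56, snR78 and snR82 against the control in Pab1-TAP were each lost without control replicate 2 or 3 or Pab1-TAP replicate 1 or 2.

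No member passed the edgeR test between Rpl16a-TAP and the control, where 0.302% of all features did (0.0556% higher, 0.246% lower), and 3 members had an unadjusted p below 0.05. DESeq2 called 1 member there, and the libraries with at most 1% rRNA gave 0 (1.04% called). Between Lsm1-TAP and the control no member and 0.0% of all features passed, 1 member had an unadjusted p below 0.05, and DESeq2 called 0. The members' median was -0.61 in Rpl16a-TAP and -0.54 in Lsm1-TAP, beside -0.03 and 0.02 over all features. Both signs turned in the libraries with at most 1% rRNA, where the medians were 1.08 and 1.89, again with no member called and with 2 and 10 members at an unadjusted p below 0.05. Without single libraries they ranged from -1.20 to -0.31 in Rpl16a-TAP and from -1.05 to 0.00 in Lsm1-TAP.

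Set directly against each other, in contrasts chosen after the data were seen, Pab1-TAP and Lsm1-TAP differed in 7 members (20.1% of all features called) and Upf1-TAP and Lsm1-TAP in 4 (16.9% called). The other pairs differed in few: snR69 between Pab1-TAP and Rpl16a-TAP (14.2% called), snR10 between Upf1-TAP and Pab1-TAP (23.4% called), snR13 between Upf1-TAP and Rpl16a-TAP (41.5% called) and no member between Rpl16a-TAP and Lsm1-TAP (7.83% called). The paper excepts Lsm1-TAP from the purifications whose profiles differed from the control, and it focused on Upf1, Rpl16a and Pab1. Whether differences from Lsm1-TAP are particular to that bait was not tested.

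The 7 methylation guides snR72 to snR78 lie in a row on chromosome XIII and are cut from one shared precursor. Their reads nonetheless ranged from 608 for snR72 to 20364 for snR76. snR78, which is the first on the strand, was lower in Upf1-TAP and Pab1-TAP against both references. snR72 was called in Upf1-TAP against input and snR75 in Upf1-TAP against the control, while snR73, snR74, snR76 and snR77 were called in none of the 9 comparisons. snR67 and snR53 share another precursor: both were called in Upf1-TAP against the control, but snR53 held at most 4.01 normalised CPM in any library.

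The 7 libraries over 1% rRNA held more of most small RNAs. In an edgeR fit with the groups and a term for these libraries, a test chosen after the data were seen, 25 of 38 members were higher and 0 lower, where 46.0% of all features were called and 21.1% were called higher. U6 had the largest difference (3.07 ± 0.58, adjusted p = 0.000153), followed by the methylation guides snR13 (2.98 ± 0.62, adjusted p = 0.000435) and snR77 (2.87 ± 0.58, adjusted p = 0.000313) and by snR81 (2.56 ± 0.54, adjusted p = 0.000488), an H/ACA RNA that also modifies U2. The median was 1.55 over the H/ACA RNAs, with 10 of 13 called, and 1.15 over the C/D RNAs, with 14 of 24 called. snR48, snR53, snR67, snR69, snR72 and snR82 lay between -0.15 and 0.16 and were not called.

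In snR13 the tagged purifications held 81.9 and 462, 12.2 and 150, 292 and 904, and 1526 and 1658 normalised CPM in replicates 1 and 2 of Upf1-TAP, of Pab1-TAP, of Rpl16a-TAP and of Lsm1-TAP, and 1152, 1262, 25311 and 954 in replicate 3. The direction was not the same in all groups. The third library was the highest of its group for 36 of 38 members in Pab1-TAP, 31 in Upf1-TAP, 24 in Rpl16a-TAP and 19 in input, but for 5 in Lsm1-TAP, where the share of all features was 42.9%, 41.6%, 29.6%, 32.6% and 36.6%. Over 36 RNAs with an annotated length, the difference correlated weakly with length (Pearson's r = 0.141, Spearman's rho = 0.21, across RNAs that share libraries).

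The term is nearly the same as replicate number 3, and only control replicate 2 tells them apart. Without replicate 3 of every group, 0 members were called (20 at an unadjusted p below 0.05), where 180 of 12277 features were called. With the replicate block added 0 were called as well (5 unadjusted), where 127 of 12582 features were. Calls over the whole table thus fell away too. Without each group in turn 18 to 30 members were higher and 0 lower, with 4659 to 5637 features called. Without replicate 1 of every group 16 were higher and 2 lower, where 3970 of 11894 features were called. The kit used, the date of the experiment and the rRNA left in the library cannot be told apart as sources of this difference.

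**Figure D4:**
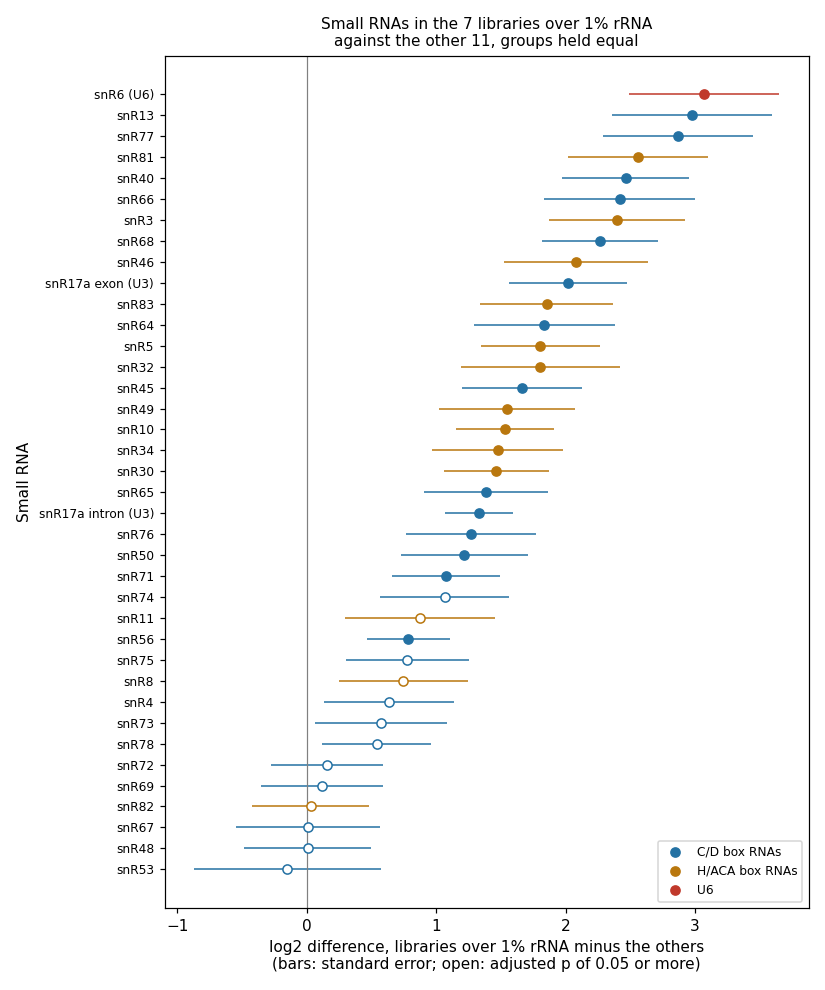
Log2 difference between the 7 libraries over 1% rRNA and the other 11, with groups held equal (horizontal axis, bars are standard errors), for the 38 tested rows (vertical axis), filled where the adjusted p is below 0.05. U6 is at the top with 3.07 and the 6 lowest rows lie between -0.15 and 0.16.

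The scaling of the libraries sets the level of all these changes. With total counts in place of TMM, the median of all features against input moved from 0.27 to 2.33 in Upf1-TAP, from 0.23 to 1.92 in Pab1-TAP, from 0.13 to 1.70 in Lsm1-TAP, from 0.04 to 1.23 in the control and from 0.03 to 0.65 in Rpl16a-TAP. Relative to that median, 34 of 38 members remained below it in Upf1-TAP and 36 in Pab1-TAP, against 34 and 35 with TMM. Measured from 0, only 12 and 14 members were lower, and 5 members in Upf1-TAP, 17 in Lsm1-TAP and 12 in the control were then called higher than input. The medians of all features moved up in the same comparisons, so these counts alone show nothing particular to the members. Statements on lower or higher small RNAs therefore hold relative to the bulk of features in a library.

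Genes for the proteins that work with these RNAs were read from their reading frames or exons, as 53 genes in 7 lists. Against input, Upf1-TAP had 9 of them higher and 14 lower, whereas Rpl16a-TAP had 10 higher and 0 lower. The numbers were 8 and 3 for Pab1-TAP, 11 and 5 for the control and 7 and 7 for Lsm1-TAP. The shares of all features called higher and lower were 22.2% and 15.9% for Upf1, 5.62% and 4.0% for Rpl16a, 9.89% and 7.89% for Pab1, 9.21% and 6.96% for the control and 13.1% and 9.77% for Lsm1. All 4 mRNAs of C/D box core proteins were lower in Upf1-TAP, with SNU13 at -3.75 and NOP56 at -1.81, and 3 of 4 were lower in Pab1-TAP. Of the 4 mRNAs of H/ACA box proteins, 3 were lower in Upf1-TAP, and in Pab1-TAP 0 were lower and 1 higher. The 2 lists had close medians in Upf1-TAP, -1.79 for C/D and -1.69 for H/ACA. RSA1, a factor for C/D particle assembly, was higher than input in all 5 purifications, from 1.94 in the control to 3.69 in Upf1-TAP. In Pab1-TAP the largest changes were those of RSA1 (2.29) and of LSM8 and YHC1 (both 2.27), and in Rpl16a-TAP those of PRP3 (2.43) and YHC1 (2.31). PRP3, a protein of the particle with U4 and U6, was higher in Lsm1-TAP by 6.20 ± 0.73 (adjusted p = 9.29e-05), and was also higher in the control by 2.62, while SNU13 was lower in both (-2.55 and -2.72). Against the control, Upf1-TAP had 6 higher and 15 lower, led by MSL1 (2.27) and SMD1 (2.18), Pab1-TAP had 7 higher and 8 lower, led by NOP10 (2.55) and LSM6 (2.24), where 19.8% and 13.9% of all features were higher and lower in the former and 8.24% and 8.08% in the latter. None passed in Rpl16a-TAP and Lsm1-TAP, where PRP3 in Lsm1-TAP came nearest (3.59 ± 0.62, adjusted p = 0.0551).

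Among the other structured RNAs, SCR1, the RNA of the signal recognition particle, was lower than input in Upf1-TAP (-4.41), Pab1-TAP (-5.52) and Lsm1-TAP (-4.68), and NME1, the RNA of the RNase that cuts the rRNA precursor, in the same 3 purifications (-3.96, -3.79 and -3.34). TLC1, the telomerase RNA, was lower in Upf1-TAP (-1.52). None of the 3 passed the test against the control in any tagged purification. RPR1 was at 0 in all libraries.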

How the data were processed

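The values were read counts per feature, deposited by the authors as 1 table per library. By the paper's methods and the processing notes, reads were trimmed with cutadapt 1.16, aligned to S288C with STAR 2.7 and counted with featureCounts (Subread 1.6.2) on an Ensembl R64 annotation extended with noncoding RNAs. No source used here states the strand setting of the counting. The members and gene lists were chosen with earlier results of these data known.

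Features were kept where 3 or more libraries held 10 or more reads. All 18 libraries entered 1 quasi-likelihood fit by group in edgeR 4.0.16 with TMM factors, and p-values were adjusted by Benjamini-Hochberg over all features kept. The fit was also run on simulated counts without differences by replicate number or rRNA share, so that run does not cover such differences. Named were U3, the spliceosomal and intron-hosted RNAs, U14, snR30, snR10, snR4, snR45, members at 0 reads, the 2 largest called changes among protein genes and, per comparison, the 3 largest called increases and decreases of members with a mean of at least 20 CPM and 1 sign in all 3 same-numbered pairs. Other members were named after their values were seen. The legend of the study's RNA dataset gives different dates for the replicates. Same-numbered tagged and input libraries deviated together over features kept (r of 0.125 to 0.482 in 12 pairs), so blocked values are given where they changed a call or count against input. Pairs with the control ranged from -0.323 to 0.6. Alternatives were DESeq2 1.42.0, other scalings and filters, the replicate block, subsets of libraries, and, added after seeing the data, the rRNA term test with its settings and contrasts between tagged purifications. Libraries held 2790148 to 16381719 reads.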

Additional observations from a re-analysis of the deposited data

Results flagged for a closer look

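Differences between tagged purifications were tested in the same edgeR fit with Benjamini-Hochberg adjustment, a contrast chosen after the data were seen, and the following members passed. Input cancels in these contrasts, which were not refitted without single libraries. Those with Pab1-TAP are thus not given without its replicate 1. Pab1-TAP was lower than Lsm1-TAP, where 20.1% of all features were called, in snR67 (log2 difference -4.06, adjusted p = 0.00868), snR69 (-2.73), snR56 (-2.72), snR73 (-2.61), snR82 (-2.39) and snR78 (-2.15), and higher in snR10 (2.69, adjusted p = 0.0323). For snR10 the third Pab1-TAP library stood apart, with 7.39, 24.2 and 190 normalised CPM in Pab1-TAP. Lsm1-TAP held 9.04, 17.4 and 7.59 and Upf1-TAP 3.48, 4.03 and 7.69, and both overlapped Pab1-TAP. Upf1-TAP was lower than Lsm1-TAP in snR67 (-3.29), snR56 (-3.11, adjusted p = 0.00539), snR48 (-2.96) and snR73 (-2.82), where 16.9% were called. snR69 was lower in Pab1-TAP than in Rpl16a-TAP (-2.65, adjusted p = 0.0349, 14.2% called). snR10 was lower in Upf1-TAP than in Pab1-TAP (-3.87, adjusted p = 0.00539, 23.4% called), and snR13 was lower in Upf1-TAP than in Rpl16a-TAP (-3.97, adjusted p = 0.0447, 41.5% called), where the third Rpl16a-TAP library held 25311 normalised CPM. Between Rpl16a-TAP and Lsm1-TAP no member passed (7.83% called).

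The exon row of snR17b, the second U3 gene, stood out as the only minus-strand small RNA row with reads, 31 over the 18 libraries, and entered no test. Its sequence is close to that of the first U3 gene, and whether these reads come from it was not tested.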

How the results depend on the processing

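Of 39 called log2 fold changes, DESeq2, no low count filter, the replicate block and a term for libraries over 1% rRNA kept all 39 calls, and total count scaling kept 12. Other settings lost many: 18 calls were kept without replicate 1 of every group, 3 without replicate 2 and 34 without replicate 3. Leaving out control replicate 2 alone kept 6 and lost 16, and leaving out Upf1-TAP replicate 1 alone kept 6 and lost 15. Shares of all features are not given for these refits. Members called against input in Upf1-TAP (8) were 4 with at least 10 reads in each library compared, 13 with DESeq2, 13 with libraries of at most 1% rRNA, 13 with the 6 libraries compared alone and 17 with the rRNA term. For Pab1-TAP (6) these were 3, 8, 16, 2 and 13. Rpl16a-TAP (2) had 0, 5, 4, 1 and 5, the control (2) had 3, 4, 2, 6 and 4, and Lsm1-TAP (1) had 1, 2, 5, 6 and 5. The share of all features called against input moved as well. With at least 10 reads, DESeq2 and at most 1% rRNA it was 47.6%, 41% and 53.7% in Upf1-TAP. In the same order it was 26.3%, 22.4% and 33.9% in Pab1-TAP. It was 18%, 14.8% and 30.6% in Rpl16a-TAP, and 37.4%, 27% and 41.1% in Lsm1-TAP. Total count scaling gave 17 members in Lsm1-TAP and 12 in the control, and scaling on reading frames and exons 1 in Rpl16a-TAP and 1 in the control. Against the control, Upf1-TAP (13) had 7 with at least 10 reads, 3 with at most 1% rRNA and 3 with total counts. Pab1-TAP (7) had 12 with DESeq2, 2 with its 6 libraries, 4 with either other scaling and 18 with the rRNA term, and Rpl16a-TAP (0) had 1 with DESeq2 and 1 with that term. Over the 6 groups (16), no filter gave 25, at most 1% rRNA 28, reading frame scaling 10 and the rRNA term 31. With the replicate block the counts against input were 3 for the control (29.7% of all features called), 3 for Lsm1-TAP (37.0%) and 6 for Rpl16a-TAP (24.8%). They were 15 for Pab1-TAP (32.3%) and 18 for Upf1-TAP (51.3%). Numbers paired the control only in part, since 8 of 15 pairs with the control purification correlated best with their own number. Every number 1 pair did so, whereas every number 2 pair had a negative r (-0.323 to -0.202). Against the control the block gave 0 for Lsm1-TAP (3.35% of all features called) and 2 for Rpl16a-TAP (4.99%). It gave 24 for Pab1-TAP (30.8%) and 26 for Upf1-TAP (49.7%). Over the groups it gave 31 (78.1%), and 0 for the rRNA term (127 of 12582 features). Leaving out replicates gave 1 to 12 calls against input for Upf1-TAP, 0 to 3 for Lsm1-TAP, 0 to 11 for Pab1-TAP, 0 to 4 for the control and 0 to 4 for Rpl16a-TAP. Against the control it gave 0 to 22 for Pab1-TAP, 0 to 20 for Upf1-TAP, 0 to 2 for Rpl16a-TAP, 0 to 0 for Lsm1-TAP, and 1 to 29 over the groups. These ranges are given without the shares of all features, so they do not show a change particular to the members. For the rRNA term, leaving out replicates or whole groups gave 0 to 30, the 30 without the Lsm1-TAP group. Over all features 180 to 5637 were called in these refits. The sign turned for snR72 in Upf1-TAP against input (0.34 without input replicate 1, and -2.57 to 0.61 without 1 replicate number of each group, the latter without replicate 1). It also turned in Upf1-TAP against the control with at most 1% rRNA for snR53 (0.50), snR67 (0.61), snR68 (0.36) and snR69 (0.35), and for the U3 intron to exon ratio of Rpl16a-TAP against the control (-1.92 to 0.22, the latter without replicate 3). The members' medians that turned are given with their comparisons. The causes were not tested. Where an alternative uses fewer libraries or features, the number tested differs too. Low members such as snR53 and snR72, and the single U3 intron read of Rpl16a-TAP replicate 3, are limited by depth.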
